A study of Ascaris suum with 62 samples.

Results

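In the pig roundworm Ascaris suum, 157 stretches of the retained genome carried CENP-A in every testis and ovary sample but almost none in late embryos and larvae. They were found by cutting each scaffold into 20 kb windows and measuring cover, the percent of a window that lies inside CENP-A peaks. Windows under 5 kb and windows touching a peak marked eliminated were dropped. A member had a cover of at least 5% in each of 6 gonad lists, under 1% in each of the 5day, 7day and L1 lists (here called the late lists), and a mean under 20% over the 0hr, 46hr and 60hr lists. These 157 windows were 1.14% of the 13765 retained windows and lay on 89 of 600 scaffolds, 3101 kb in all. Because the rule read all 12 lists, the difference between gonad and late lists is given below as a description with no test. Testis against ovary and 60hr against 0hr, whose order the rule did not set, were tested over all windows. The rule bounded the cover behind both, so the members' counts in those tests are read as descriptions too.

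CENP-A is the variant of histone H3 that marks centromeric chromatin, where kinetochores form and spindle microtubules attach. The chromosomes of Ascaris are holocentric, so CENP-A lies along much of their length and not at a single point. In early embryos of this worm, part of the genome is lost from the precursors of somatic cells while the germline keeps it (programmed DNA elimination), and a chromosome fragment needs CENP-A to be pulled to a spindle pole.

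The study ran chromatin immunoprecipitation with sequencing for CENP-A on testis (testis1 to testis3), ovary (ovary1 to ovary3), embryos incubated at 30 °C for 0, 46 or 60 hours or for 5 or 7 days, and L1 larvae. Each of the 12 stages had a single-end and a paired-end library, and these 24 libraries of the 62 in the series are used here. The 0hr sample was fertilized eggs from the last stretch of the uterus, and no genotype or treatment other than incubation is given. Not stated are the meaning of the gonad numbers 1 to 3, the number of animals pooled and the gonad cells taken, and tissue identity cannot be checked from peak lists.

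A stage is represented by 1 peak list carrying read counts of both libraries, so cover has no replicate within a stage and its spread is over lists. Lists held 9197 to 21837 peaks and 1005578 to 14901685 reads in peaks per library. Over peaks in the member windows, the log read densities of a stage's libraries correlated at 0.828 to 0.944 in 5 gonad lists and at 0.564 in testis3, which stood apart over all its peaks too (0.307). Some results that rest on testis3 are therefore also given without it, and the others include it. Coordinates are the authors' positions on scaffolds of the AgBionano_v1.9 assembly, named from the scaffold names in the files. A lower signal in fewer cells and less CENP-A in each cell cannot be told apart in such bulk samples.

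Most retained windows with CENP-A in all gonad lists kept it in late stages. Of 1884 retained windows that met the gonad minimum in all 6 lists, 1652 had a cover of at least 1% in at least 1 late list, and 1409 had at least 5% in every gonad and every late list. These 1409 are called kept windows below. A further 75 windows met the gonad and late conditions but had a mean of 20% or more over the hours lists, which left the 157 members, 8.33% of the 1884. Among windows marked eliminated, 51 met the gonad minimum, and 25 of these (49.0%) also met the late and hours conditions.

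The 3 thresholds cut through continuous values. The lowest gonad cover inside the rule was 5.04% (testis3, scaffold 31, 1140001 to 1160000) and 5.08% (testis3, scaffold 32, 2000001 to 2020000), and the nearest windows outside had 4.92% (testis3, scaffold 3, 280001 to 300000) and 4.88% (ovary2, scaffold 9, 2160001 to 2180000). The highest late cover inside was 0.64% (5day, scaffold 13, 1560001 to 1580000) and 0.52% (L1, scaffold 42, 1300001 to 1320000), against 1.46% (5day, scaffold 87, 660001 to 680000) and 1.56% (7day, scaffold 25, 1840001 to 1860000) outside. The highest hours means inside were 19.8% (scaffold 11, 960001 to 980000) and 19.6% (scaffold 7, 1680001 to 1700000), against 20.2% (scaffold 83, 20001 to 40000) and 20.3% (scaffold 3, 1380001 to 1400000) outside. The late limit was rarely approached from within, since 154 of the 157 members had no late peak at all.

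In the gonads, members ranged from thinly to fully covered. Testis1 covered members by 5.36% to 97.0% with a median of 30.3%, testis2 by 5.47% to 100% with a median of 40.8%, and testis3 by 5.04% to 100% with a median of 21.8%. Ovary1 covered them by 5.09% to 100% with a median of 20.3%, ovary2 by 5.12% to 60.5% with a median of 14.1%, and ovary3 by 5.67% to 82.2% with a median of 24.5%. Testis2 was the list with the most CENP-A in 71 members and ovary2 the list with the least in 59, while ovary2 was highest in only 2. Kept windows had medians of 43.5%, 45.8% and 22.9% in testis1 to testis3 and of 30.7%, 28.2% and 36.8% in ovary1 to ovary3, so members lay below them in each gonad list.

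Few of the bases in the members' gonad peaks lay inside a peak in all 6 gonad lists. A member's mean cover over the 6 lists had a median of 25.4% (range 8.77% to 80.6%), its SD over the lists a median of 14.6 percentage points, and its highest list was 4.55 times its lowest in the median member. Some bases lay inside a peak in all 6 lists in 89 of the 157 members (56.7%). That common core was 158143 of the 1904992 bases inside a peak in at least 1 gonad list, or 8.30%. In the other members the gonad lists had peaks in the same window but no base common to all 6. A core cannot exceed the cover of the sparsest list, such as ovary2 with a median of 14.1%. It was not computed for kept windows.

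**Figure D1:**
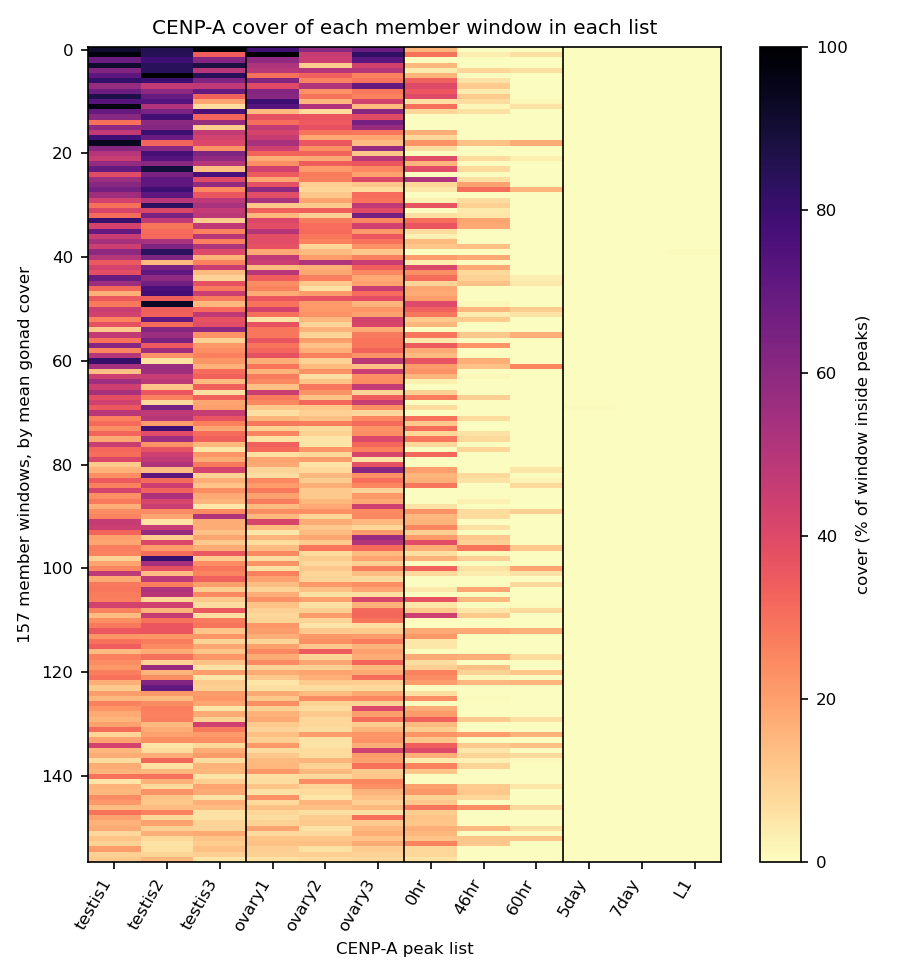
Cover (percent of window inside CENP-A peaks, colour) of each of the 157 member windows (vertical axis, sorted by mean gonad cover) in the 12 lists (horizontal axis); lines divide testis, ovary, hours and late lists. Cover is present throughout the 6 gonad lists, thins from 0hr to 60hr, and is 0 in the late lists for 154 windows.

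Each gonad list in turn was left out of the rule and then read in the windows chosen without it. When the rule was applied without testis1, 164 windows were chosen, and testis1 covered 95.7% of them by at least 5% (exact 95% binomial interval 91.4% to 98.3%), against 45.4% of all retained windows. The same reading gave 89.2% of 176 windows for testis2 (83.7% to 93.4%) against 51.7%, and 70.4% of 223 for testis3 (63.9% to 76.3%) against 32%. It gave 83.1% of 189 for ovary1 (76.9% to 88.1%) against 42.1%, 61.8% of 254 for ovary2 (55.5% to 67.8%) against 35.3%, and 87.7% of 179 for ovary3 (82.0% to 92.1%) against 58.4%. Each list was therefore above its own background, by 1.5 to 2.2 times, with ovary2 and testis3 the lists that most often lacked a peak. Windows chosen by the other 5 gonad lists alone, whatever their late cover, were covered by the left-out list in 97.7%, 91.1%, 72.5%, 91.2%, 84.0% and 94.7% of cases in the same order, so the members' shares were no higher than those of gonad windows at large. These intervals treat windows as independent and hold no spread between samples.

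Absence from the late lists was read in the same way. Without 5day in the rule, 89.2% of 176 windows were under 1% in 5day (83.7% to 93.4%), against 52% of retained windows and 17.4% of the 1884 windows with CENP-A in all gonad lists. Without 7day the share was 95.2% of 165 (90.7% to 97.9%), against 52.2% and 18.8%. Without L1 it was 82.2% of 191 (76.02% to 87.3%), against 51.4% and 16.9%. Windows that were empty in a pair of late lists were thus mostly empty in the remaining one, and windows chosen on the other late lists alone reached 95.1%, 96.7% and 93.9%.

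Among retained windows that met the late and hours conditions, 2211 reached 5% in no gonad list, 1410 in 1, 781 in 2, 498 in 3, 361 in 4, 243 in 5 and 157 in all 6. The counts fell steadily, with no separate group at 6. Of the 243 that missed by a single list, 97 missed in ovary2 and 66 in testis3, compared with 32 in ovary1, 22 in ovary3, 19 in testis2 and 7 in testis1. The lists in which most windows failed, ovary2 and testis3, were also those with the least covered genome among the gonads (21.7 and 19.0 Mb, against 28.8 to 47.0 Mb), and the part of list size in the result was not tested.

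Joined where they touch, the members formed 144 regions, of which 135 were a single window, 7 were pairs and 2 were runs of 4 windows. Members were spread thinly, with 48 scaffolds holding 1 and scaffold 4 holding the most, 5. The highest shares were on small scaffolds: 3 of 5 retained windows on scaffold 333, 4 of 13 on scaffold 156 and 3 of 20 on scaffold 150.

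The longest regions were on scaffolds 40 and 156. On scaffold 40, from 20001 to 100000, cover was 47.6%, 51.4% and 50.5% in testis1 to testis3 and 33.3%, 37.4% and 40.7% in ovary1 to ovary3, a gonad mean of 43.5% ± 7.43 (SD, n = 6 lists). It was 19.1% at 0hr, 2.73% at 46hr and 0 in the 4 later lists. All 3 testis lists lay above all 3 ovary lists, and the windows on both sides averaged only 1.26% and 0.983% in gonads. In reads, the region held 1036 to 2432 RPM (reads in its peaks per 1000000 reads in peaks of the library) over the 12 gonad libraries, and 1036 to 1950 without testis3. It held 354 and 334 in the 0hr libraries and 52.2 and 55.4 in the 46hr libraries.

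On scaffold 156, from 20001 to 100000, cover was 32.2%, 12.6% and 21.9% in the testis lists and 22.5%, 33.9% and 40.7% in the ovary lists (27.3% ± 10.1, SD, n = 6). It was 0.916% at 0hr and 0 in all later lists. Testis and ovary overlapped here. The next retained window on its right had no peak in 5 of the 6 gonad lists and none in any embryo or larval list. The window on its left had peaks in 5 gonad lists, with a mean of 5.81%, and 0.88% at 0hr. Gonad cover was thus lower on both sides of the region.

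On scaffold 333, the members from 1 to 40000 had 47.4%, 51.5% and 40.3% in testis and 41.2%, 27.04% and 40.7% in ovary (41.4% ± 8.32, SD, n = 6), and no peak in any list from 0hr to L1. The region held 504 to 986 RPM in the testis libraries (504 to 803 without testis3) and 330 to 702 in the ovary libraries. The neighbouring window from 40001 to 60000 was covered by 65.1% to 100% in the gonads and had no peak from 0hr to 7day. It was not a member because L1 covered 28.3% of it, so CENP-A was listed there in gonads and larvae but in none of the embryo stages between. The window after it, from 60001 to 80000, was again a member. Gonad lists covered that one by 32.4% to 78.4%, and no list from 0hr to L1 had a peak there.

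**Figure D2:**
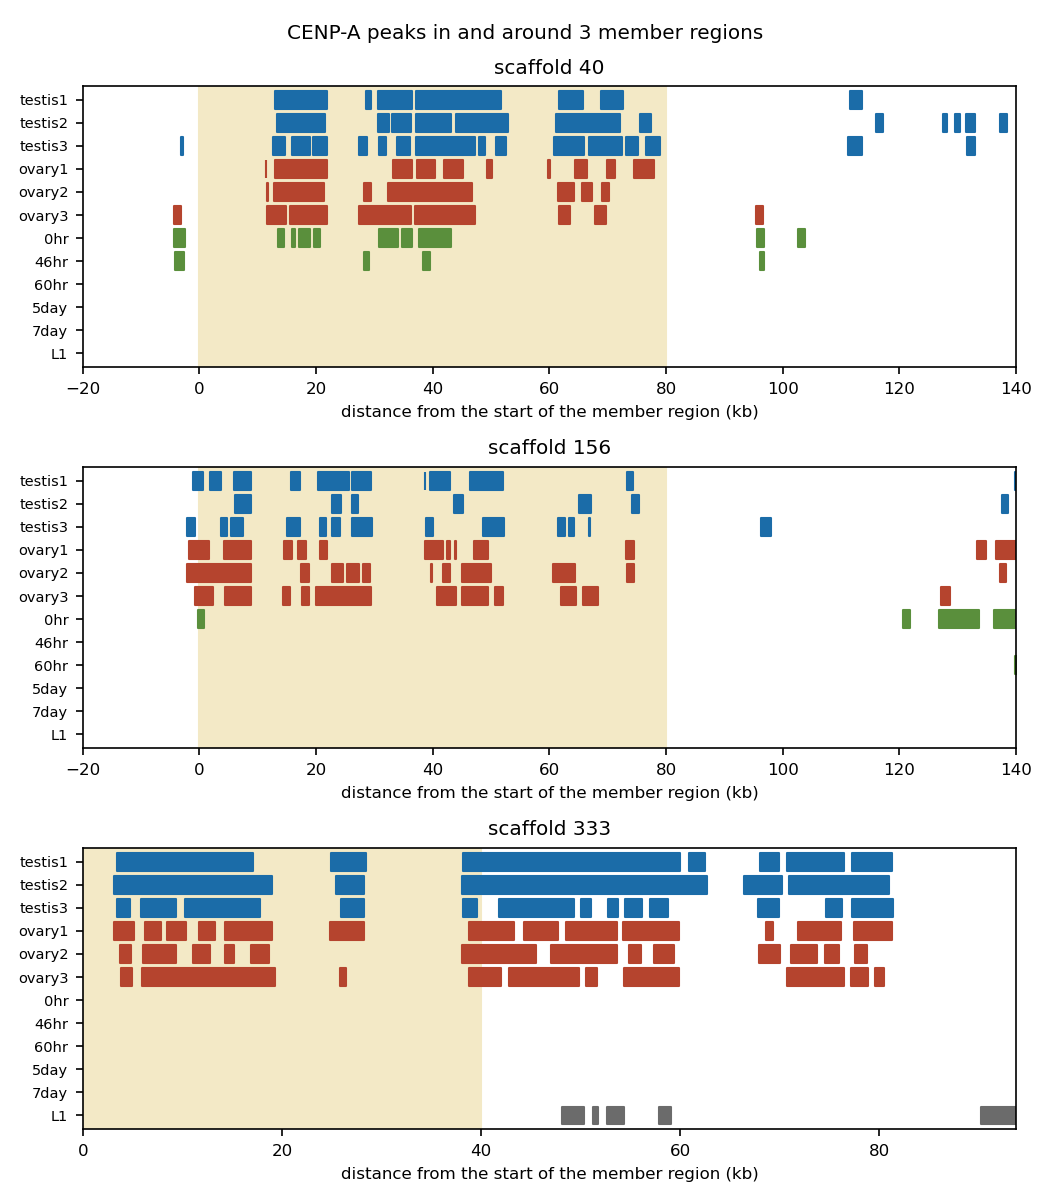
CENP-A peaks (bars) of each of the 12 lists around member regions of scaffolds 40, 156 and 333, by distance from the region's start in kb. Shading marks these 3 regions only. A further member on scaffold 333, from 60001 to 80000, is not shaded. Gonad peaks cover part of each shaded stretch (12.6% to 51.5% by list), 0hr and 46hr peaks are also listed on scaffold 40, and L1 peaks appear beside the shaded stretch of scaffold 333.

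The single window with the most gonad CENP-A was on scaffold 145, from 100001 to 120000. It was covered by 91.3%, 85.3% and 100% in testis1 to testis3 and by 78.3%, 60.5% and 68.1% in ovary1 to ovary3 (80.6% ± 14.7, SD, n = 6), then by 15.4% at 0hr and by no peak afterwards. The window held 1034 to 3143 RPM in the testis libraries (1034 to 1370 without testis3, whose libraries had 3143 and 1357), 621 to 1466 in the ovary libraries, and 143 and 144 in the 0hr libraries. The 20 kb window to its left touched a peak marked eliminated. No member lay nearer than 6.79 kb to such a peak. Other windows with high gonad means were scaffold 10, 3860001 to 3880000 (73.9% ± 27.5, SD, n = 6 here and below), the first window of scaffold 333 (64.3% ± 12.0), scaffold 29, 1880001 to 1900000 (61.5% ± 32.1), and the second window of the scaffold 14 run described next (57.7% ± 13.7).

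The remaining runs of members were 40 kb or just under. Their gonad means were 53.2% ± 21.3 on scaffold 29 (1880001 to 1920000), 41.0% ± 13.8 on scaffold 14 (3400001 to 3440000), 39.3% ± 19.5 on scaffold 82 (240001 to 280000), 33.3% ± 19.8 on scaffold 86 (460001 to 500000), 28.8% ± 10.8 on scaffold 10 (3660001 to 3700000) and 32.6% ± 21.3 on scaffold 104 (700001 to 737043). All 7 such runs were at 0 in the late lists, which is how they were chosen, yet several abutted sequence with strong late CENP-A. The next window to the right on scaffold 29 was covered by 61.9% to 77.3% in the late lists, and the next on scaffold 82 by 43.9% to 58.3%. The window to the left on scaffold 14 was covered by 46.05% to 76.5%. At these 3 places, windows without late peaks and windows with at least 43.9% in each late list thus lay side by side.

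In some members much of the gonad CENP-A lay on the same bases in every gonad list. The 5 with the highest share of common core, named after their values were seen, had 93.0%, 79.1%, 74.97%, 60.5% and 57.3% of the bases in any gonad peak covered by all 6 lists. On scaffold 19, from 700001 to 720000, the 6 gonad lists covered 23.4% to 24.5%, and all 6 shared 4592 of the 4939 bases inside any gonad peak. Cover there was 22.3% at 0hr, 7.16% at 46hr and 9.80% at 60hr. On scaffold 597, from 1 to 12371, gonads covered 8.96% to 10.1% and 0hr 8.14%, with no peak later. On scaffold 109, from 500001 to 520000, the gonad lists covered 16.9% to 21.9% and 0hr 21.1%, again with none later.

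The fourth of these kept its cover through the hours lists. On scaffold 1, from 1240001 to 1260000, 5 gonad lists covered 12.1% to 12.4% and testis2 covered 7.57%. Cover was then 12.2%, 12.1% and 12.0% at 0hr, 46hr and 60hr, and 0 in 5day, 7day and L1. Its CENP-A was thus level from gonad to 60hr and listed in none of the late stages. The fifth, the first window of the scaffold 40 region, had 26.97% to 38.5% in gonads and 20.4% at 0hr.

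In fertilized eggs the members' median cover was near that of retained windows, but the rule bounded the mean of the hours lists, 0hr among them. Without that bound, 232 windows had a 0hr median of 21.1%. Mean cover at 0hr was 15.4% in members and 21.1% in all retained windows. At 0hr, cover ranged from 0 to 51.9% with a median of 14.2%, close to the 13.97% median of all retained windows, while 117 of 157 members (74.5%) had at least 5% and 29 (18.5%) had no peak, against 66.3% and 28.5% of retained windows. At 46hr the range was 0 to 30.2% with a median of 0.665%, and at 60hr it was 0 to 25.2% with a median of 0. At 60hr 121 members (77.1%) had no peak, against 41.4% of retained windows. So the windows were limited to the gonads relative to the late stages, not relative to eggs. In kept windows the medians were 48.3%, 55.2% and 57.6%, and in all retained windows 13.97%, 9.70% and 8.16%.

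The order of loss varied. A peak was listed at 0hr alone in 48 members, at 0hr and 46hr in 45, at all 3 times in 32, at none in 25, at 0hr and 60hr in 3, and at 46hr or 60hr but not 0hr in 4. Cover was lower at 60hr than at 0hr in 125 members and higher in 4. The rule bounds the mean of the hours lists, not their order, and without that bound, 80.2% of the 232 windows were covered less at 60hr than at the start, close to the 79.6% of members. The share without a 60hr peak did move with the bound, to 55.6%. Among kept windows 33.6% had less cover at 60hr and 65.2% more, but kept windows were chosen to have late cover. Over the 6215 retained windows that met the late condition, mean cover ran from 3.56% in the lowest hours list to 10.1% in the highest. Over all retained windows it ran from 20.4% to 21.6%, and over members from 2.07% to 15.4%. Whether a fall from 0hr to 60hr is particular to members, and not common to windows meeting the late condition, was not tested.

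**Figure D3:**
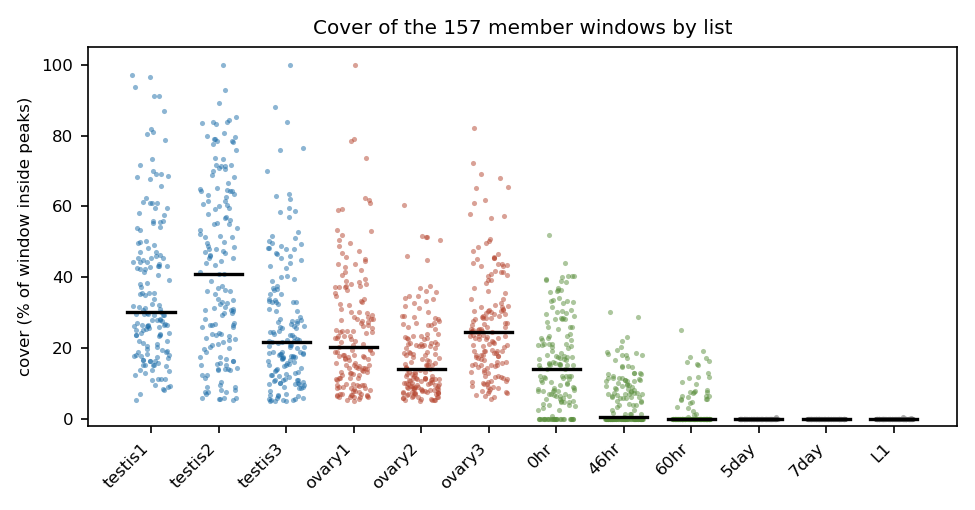
Cover (percent of window inside peaks) of each member window (points, spread sideways for visibility) in the 12 lists, with bars at the median. The medians run from 14.1% to 40.8% in the gonad lists, stand at 14.2% at 0hr, and are 0 from 60hr on.

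Bases shared by all gonad lists were covered at 0hr more often than other bases. Peaks at 0hr covered 53.1% of the core bases common to all 6 gonad lists, 20.5% of bases inside a peak in 1 to 5 gonad lists, and 2.87% of member bases outside every gonad peak. In 91 members the 0hr cover was at least that of the lowest gonad list, and at 60hr this held in 12.

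Read counts were used to test the change over the first 60 hours. edgeR's quasi-likelihood test with Benjamini-Hochberg adjustment compared the 2 libraries of 60hr with those of 0hr over 11144 windows. Over all windows tested, 52.7% were lower and 36.7% higher at 60hr at an adjusted p under 0.05. Of the 157 members 25 had no reads in peaks at any of the 3 times and could not be tested, 121 were lower, 4 were higher and 7 were not called. Of the 121, 93 had no 60hr peak, and a member with a peak at 0hr alone had to differ, so those calls add nothing to the cover. The remaining values are over windows with a peak at both times. They too are a description, since the rule bounded the hours cover and required under 1% at 5day. Among 35 such members, 28 (80.0%) fell and 3 rose, with a median log2 change of -1.61 (range -4.00 to 1.81). Over all 7484 windows with a peak at both times, 41.5% fell and 44.8% rose, with a median of 0.03. Over 1359 kept windows 23.7% fell and 57.8% rose, with a median of 0.28. Retained windows that met the late condition were not read apart here, so whether this fall is particular to members was not tested. Nothing says that a stage's libraries came from separate egg batches, so these p-values measure the spread between libraries.

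The 46hr list stood between. Against 0hr in the same fit, a contrast added after the data were seen, 47.8% of all windows were lower and 36.6% higher. Among 77 members with a peak at both times, 56 (72.7%) fell and 8 rose, with a median log2 change of -1.11. Over all 8316 windows with a peak at both, 40.8% fell and 41.5% rose.

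The clearest losses left no peak at all. On scaffold 109, from 500001 to 520000, the 0hr libraries had 237 and 217 RPM and neither later list had a peak. On scaffold 57, from 1 to 20000, there were 191 and 215 at 0hr, 115 and 131 at 46hr, and no peak at 60hr. On scaffold 43, from 1600001 to 1620000, there were 154 and 202 at 0hr and no peak afterwards. A window with no peak can still hold reads, so no fold is given for these. The highest 0hr cover of any member was 51.9% on scaffold 123 (100001 to 120000), 44.0% on scaffold 87 (300001 to 320000) and 40.3% on scaffold 57 (1 to 20000).

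Members called higher at 60hr numbered 4, and 3 to 5 over the alternatives. On scaffold 37, from 1260001 to 1280000, RPM was 16.0 and 15.7 at 0hr, 98.3 and 101 at 46hr, and 56.2 and 62.6 at 60hr (edgeR adjusted p = 6.86e-11). On scaffold 45, from 840001 to 860000, it was 58.8 and 61.6, then 64.1 and 72.9, then 91.9 and 87.5 (edgeR adjusted p = 0.000143). On scaffold 43, from 1520001 to 1540000, a peak was listed at 60hr alone, with 20.2 and 20.5 (edgeR adjusted p = 2.3e-11). On scaffold 14, from 3420001 to 3440000, RPM was 33.3 and 30.7 at 0hr, 83.1 and 61.4 at 46hr, and 43.2 and 43.0 at 60hr (edgeR adjusted p = 0.0496). That last call held in 5 of 10 fits, with an adjusted p of 0.00169 to 0.178, and was lost with no filter and without any 1 of the 0hr and 60hr libraries. The other 3 held in all 10 fits. In all 4 the libraries of 0hr and 60hr did not overlap. The highest 60hr covers of members were 25.2% on scaffold 7 (1680001 to 1700000), 19.1% on scaffold 4 (4760001 to 4780000) and 17.6% on scaffold 45.

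CENP-A in the members leaned towards testis, but no single window passed a test of testis against ovary. Mean cover was higher in testis in 125 of 157 members (79.6%), with a median difference of 11.1 percentage points, and in 63.4% of kept windows with a median of 4.66 points. Over all 11988 windows tested, 48.2% were higher in testis, with a median of 0. All 3 testis lists lay above all 3 ovary lists in 31 members (19.7%), and all 3 ovary lists lay above in 4 (2.55%). The same shares were 10.7% and 3.83% of kept windows and 5.78% and 5.56% of all windows tested. The rule treats the gonad lists alike, though its minimum falls hardest on ovary2 and testis3. With testis3 left out of the rule but kept in the testis mean, 69.5% of 223 windows were higher in testis. With testis3 left out of the mean and kept in the rule, 132 of the 157 members (84.1%) were, against 53.6% of all 11988 windows tested. Lists covered 19.0 to 47.0 Mb of the genome in testis and 21.7 to 43.5 Mb in ovary. With every list reduced to its densest peaks of the same covered length, 70.0% of the 250 windows then chosen were higher in testis. The share over all windows was not computed at that setting.

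limma on cover called 0 of 11988 windows higher in testis (0%) and 4 higher in ovary (0.0334%) at an adjusted p under 0.05. At an unadjusted p under 0.05 there were 946. No member was among the 4, and 25 of the 157 members had an unadjusted p under 0.05, of which 24 were higher in testis. The rule's minimum of 5% bounds the cover in every gonad list, so these counts describe the members and support no difference. edgeR on reads in peaks, with a stage's libraries summed, called 0 of 7790 windows in either direction (0% and 0%). It gave 533 of the 7790 windows and 10 of the 157 members at an unadjusted p under 0.05, which are like shares. Of these 10 members, 9 were higher in testis. The directions of the 946 windows in limma and the 533 in edgeR were not counted. DESeq2 on the same reads called 1204 windows, 0 of them members, and limma on log2(RPM + 1) called 381, of which 1 was a member (scaffold 42, 1300001 to 1320000). With 3 lists a side, limma called a simulated difference of 20 points in 27 of 100 windows and one of 40 points in all 100. The simulation gave every window the same normal spread, narrower than that of many members. Real differences of 55.3, 52.6 and 46.3 points in members were not called, so this recovery does not carry over to them. Differences of 20 points would mostly be missed even at the simulated spread.

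**Figure D4:**
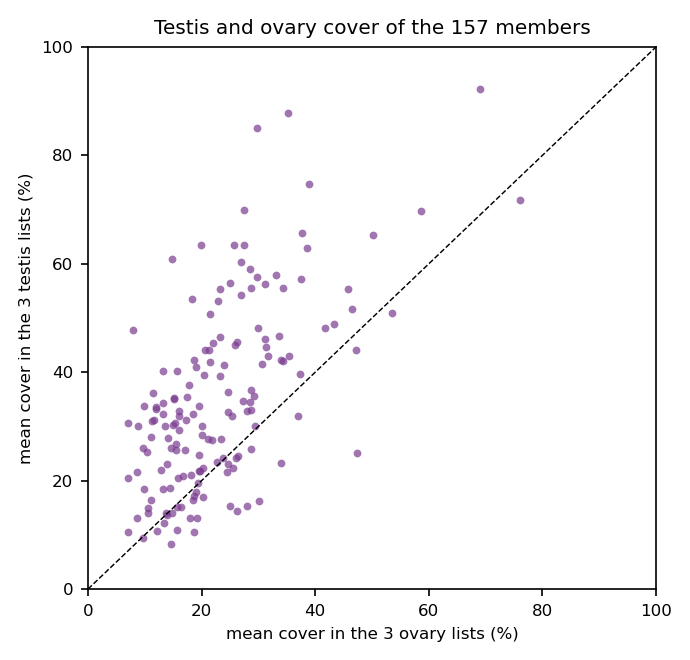
Mean cover over the 3 testis lists (vertical axis, percent) against mean cover over the 3 ovary lists (horizontal axis, percent) for each of the 157 member windows (points), with a dashed line of equality. Most points, 125, lie above the line.

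The widest differences show the spread behind this. In testis against ovary, the SDs, SEs and p-values measure the spread between numbered lists. What the numbers stand for is not stated, so the lists may not be replicates of a tissue. On scaffold 50, from 220001 to 240000, cover was 85.1% ± 14.2 in the testis lists and 29.8% ± 3.70 in the ovary lists (SD, n = 3 lists each; difference 55.3 points, SE 8.11, limma adjusted p = 0.163). On scaffold 29, from 1880001 to 1900000, it was 87.8% ± 3.67 and 35.2% ± 22.0 (limma adjusted p = 0.320), and on scaffold 42, from 1300001 to 1320000, 61.0% ± 21.7 and 14.7% ± 3.25 (limma adjusted p = 0.379). In each of these 3 windows the lowest testis list lay above the highest ovary list (71.6% against 33.4%, 83.9% against 51.9% and 39.9% against 18.1%). The spread between lists of a tissue was wide, from 39.9% to 83.3% over testis on scaffold 42. The lowest adjusted p of any member, 0.0582 in limma, was on scaffold 7 from 1280001 to 1300000, a window named for that value. There testis1 to testis3 covered 49.2%, 47.96% and 46.01% and ovary1 to ovary3 6.30%, 9.57% and 7.94% (difference 39.8 points, SE 3.20), and no embryo or larval list had a peak. Its adjusted p ranged from 0.0582 to 0.923 over the alternatives, and edgeR on reads gave an adjusted p of 0.943 for it.

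Fewer members leaned towards ovary. On scaffold 156, from 20001 to 40000, cover was 25.1% ± 10.7 in the testis lists and 47.4% ± 3.47 in the ovary lists (SD over 3 lists; limma adjusted p = 0.447). On scaffold 42, from 1820001 to 1840000, it was 16.3% ± 5.18 and 30.1% ± 23.0, where ovary3 alone was high at 56.6%, and on scaffold 117, from 520001 to 540000, 15.3% ± 9.89 and 28.1% ± 11.8 (limma adjusted p = 0.632 for both). On scaffold 156 the groups did not overlap, and on the other 2 scaffolds they did. None of these passed the test, and scaffold 42 thus held a member leaning each way.

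Peaks in the members were of ordinary width and density. Over the 6 gonad lists, 2011 peaks of at least 200 bp touched a member. Their median width averaged 2056 bp ± 465 (SD, n = 6 lists), between 1799 bp ± 204 for all retained peaks and 2388 bp ± 418 for peaks in kept windows. Peaks of 5 kb or more were 15.6% of member peaks, against 12.4% and 21.0%. By list, member peaks were widest in testis2 (median 2756 bp) and testis1 (2481 bp) and narrowest in ovary2 (1569 bp), where they were narrower than the list's own median of 1716 bp. Reads per kb relative to the list's median peak were 0.968 to 1.22 over the 12 gonad libraries and above 1 in 9 of them, against 1.04 to 1.11 and 12 of 12 for kept windows. Width enters cover directly, so these values are descriptions.

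The members took 2.19% to 5.81% of reads in peaks over the gonad libraries, 0.922% and 0.890% at 0hr, 0.373% and 0.324% at 46hr, and 0.140% and 0.124% at 60hr. The fall continued at each time, and from 5day on no library had more than 0.001%. testis3 held the highest shares (5.81% and 5.30%), and the other gonad libraries had 2.19% to 3.61%.

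Members lay somewhat nearer scaffold ends than kept windows did. Within 100 kb of an end were 50 members (31.8%, exact 95% binomial interval 24.6% to 39.7%), against 12.9% of kept windows, 24.5% of all retained windows and 27.5% of the 6215 retained windows under 1% in each late list. The members' share was thus close to that of late-empty windows of any kind. The same held for scaffolds under 500 kb, which carried 19.7% of members, 20.6% of late-empty windows and 6.25% of kept windows. Within 100 kb of an eliminated peak were 7 members (4.46%), 3.20% of late-empty windows and 0.781% of kept windows. Scaffolds with any eliminated peak held 26 members (16.6%), against 15.3% of retained windows.

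Around the members, mean late cover was higher again within 40 kb. Mean cover over the late lists was near 0 in the members, 7.84% and 8.98% in the windows 20 kb to either side, and 16.0% and 16.8% at 40 kb. The median late cover was 0 at 20 kb on both sides and 2.29% and 0.0667% at 40 kb, so these means rest on part of the windows. Gonad cover ran the other way, from 29.3% in the members to 15.0% and 16.5% at 20 kb. The low late cover and high gonad cover of the members themselves follow from the rule. Late-empty windows had a like late profile, and the nearest late peak was a median of 16.4 kb from a member and 14.8 kb from a late-empty window. Neighbours differed in gonad cover: 66.7% of the 303 windows next to a member had a mean gonad cover of at least 5%, against 44.6% beside late-empty windows and 82.2% beside kept windows. Of these neighbours 26 (8.58%) were themselves members, against 1.13% of the neighbours of all retained windows. Peaks crossing a window border put part of the same CENP-A domain into both windows, and the part of that in the count was not tested.

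**Figure D5:**
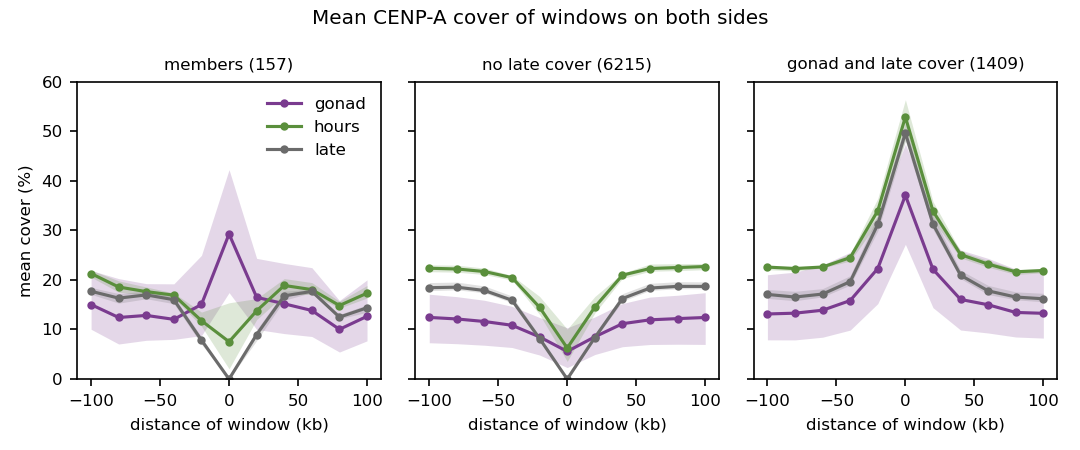
Mean cover (percent) of windows at distances up to 100 kb from 157 members, 6215 windows under 1% in every late list and 1409 kept windows, for gonad, hours and late lists; lines are means over the lists of a class and bands run from its lowest to its highest list. Gonad cover peaks at 29.3% in the members, where late cover is near 0, both of which follow from the rule. Mean late cover is 16.0% and 16.8% at 40 kb.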

How the data were processed

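The aligner and peak caller, Bowtie2 and MACS2, come from the submitters' processing notes; their versions, settings and use of input are not given in the sources used here. A stage's deposited table lists, per the file headers, peak positions, a mark of retained or eliminated, and coverage for 2 libraries. The deposited coverage holds whole-number read counts per peak, with no normalization. It is not stated which of its columns is single-end, nor whether starts count from 0 or 1. The assembly's sequence and annotation were not used, so neither sequence nor gene is given. Input, CENP-C and histone mark libraries were not analysed here.

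Scaffold extent was the largest peak end over the 12 tables. Reads were divided among windows by the overlapped share of each peak and rounded. Testis and ovary were compared with limma 3.58.1 (R 4.3.3; trend and robust moderation) on cover, in windows with a mean of at least 1% over 12 lists, and with edgeR 4.0.16 (TMM, filterByExpr) on reads; 60hr and 0hr were compared with edgeR over 6 libraries of the hours lists. Adjustment was by Benjamini-Hochberg over all windows tested, with a threshold of 0.05. RPM is per 1000000 reads in peaks of that library. Depth outside peaks is unknown, and binomial intervals cover counting error only. Alternatives used other windows, thresholds and filters, DESeq2 1.42.0, and left out each list or library. Tested on simulated data, edgeR recovered 90 of 100 windows with a 4-fold change between testis and ovary and 19 of 100 with a 2-fold change (11734 windows, 3 false calls); for 60hr against 0hr it recovered 100 and 20 (10589 windows, 2 false calls). limma made 12 false calls among 11988 simulated windows. The edgeR simulations gave every window of a comparison the same set spread, not one estimated from these data. Real testis minus ovary differences of log2 2.30 and 2.34 in 2 members had edgeR adjusted p of 0.379 and 0.943. The simulated recovery therefore does not carry over to the real windows, in either comparison.

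The members, lists and comparisons were chosen with earlier results of these data known. Named regions were the 10 longest (ties by gonad cover), the 5 windows with the highest gonad mean, the 3 with the highest 0hr and 60hr cover, the 3 widest differences in each direction per test, and the 2 nearest windows on each side of each threshold.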

Additional observations from a re-analysis of the deposited data

Results flagged for a closer look

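Among 34 sets of 6 gonad values checked for a list far from the others, 5 had one, and chance alone marks about 1 in 20 such sets. On scaffold 14, from 3400001 to 3440000, testis2 covered 67.99% and the other lists 30.8% to 42.9%. On scaffold 42, from 1820001 to 1840000, ovary3 covered 56.58% and the others 10.3% to 19.6%, so the higher ovary mean there came from that list. On scaffold 109, from 500001 to 520000, ovary1 was lowest at 16.87%, and the others had 20.8% to 21.9%. On scaffold 1, from 1240001 to 1260000, testis2 was lowest at 7.565%, and the others had 12.1% to 12.4%. The correlation of a stage's libraries over member peaks was 0.564 in testis3 and 0.828 to 0.944 in the other gonad lists. Over all 157 members, 17 (10.8%) had such a list, and it was testis2 in 11 of them.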

How the results depend on the processing

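The number of members followed the settings: 67 with 40 kb windows, 74 with a gonad minimum of 10%, 102 with an hours maximum of 10%, 250 when each list was reduced to its densest peaks of the same covered length (57 of them among the 157), and 164 to 254 without 1 list, the highest without ovary2. The share with no 60hr peak was 88.2% with 10 kb windows, 58.2% with 40 kb windows, 90.2% with an hours maximum of 10%, 55.6% with no hours maximum (added after the data were seen), and 74.0% to 79.3% without 1 list. The share higher in testis was 86.2% with 10 kb windows, 70.1% with 40 kb windows, 86.1% with windows offset by 10 kb, and 70.0% with the densest peaks. It was 69.5% to 85.4% without 1 list in the rule, where the means still took every gonad list. Shares over all windows were not computed for the other window sizes, the offset or the densest peaks. Counting any cover, a left-out list had a peak in 76.7% (testis3), 91.5% (ovary1), 68.9% (ovary2) and 92.2% (ovary3) of windows. The share near a scaffold end ran from 27.2% to 34.1% without 1 list.

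Between testis and ovary, limma on log2(RPM + 1) called 381 windows, 1 of them a member (scaffold 42, 1300001 to 1320000, limma adjusted p = 0.0499, against 0.379 on cover). limma on cover called 0 windows with no filter and 0 to 4 without 1 list, and edgeR called 10 with no filter and 0 to 2 without 1 list. DESeq2 called 1204 windows (377 higher in testis, 827 in ovary), 0 of them members. A replicate block by gonad number gave 0 calls with limma (769 at an unadjusted p under 0.05) and 0 with edgeR (202). Same-numbered lists deviated together with correlations of 0.373, 0.0861 and 0.192 over 11988 windows. Every list correlated best with its own number, a hint from the data, but the samples share only a number, and the block is no main result.

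DESeq2's size factors in edgeR moved the median log2 change over all windows between 0hr and 60hr from -0.33 to -0.12, and the median testis minus ovary difference from -0.03 to 0.17. Member calls at 60hr were 118 to 125 without 1 library. The cause of these shifts was not tested. With 3 lists a side and 1 peak set per stage, depth outside peaks and small differences could not be judged.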
